A study of Homo sapiens with 688 samples.

Results

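Gemcitabine HCl (Gemzar) was given for 6 h at 0.194 µM to BT20 cells, an epithelial breast carcinoma line, and mRNA was read out in 12 wells by PLATE-Seq and in 2 pools of wells by conventional RNA-Seq (TruSeq). These 14 samples were chosen by their drug label among the 688 samples of the series, and they were set against the 12 wells and 2 pools that received only the vehicle DMSO for the same 6 h. PLATE-Seq adds a barcode to each well during reverse transcription and sequences the 3′ ends of mRNAs of a whole plate as a single library, whereas TruSeq reads whole transcripts at greater depth. The 96-well plate also held 12 wells of each of 6 other drugs, all for 6 h: idarubicin (0.084 µM), mitoxantrone (0.18 µM), aprepitant (2 µM), albendazole (0.56 µM), crizotinib (7.16 µM) and bortezomib (0.044 µM). The first 3 were compared with gemcitabine gene by gene, and summed levels of gene lists were compared with all 6.

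The design set several limits. Each drug dose was one that left most cells viable in longer incubations, all wells came from 1 cell line on 1 plate, and the cells of every well, controls included, were frozen in serum containing DMSO before PLATE-Seq. Wells are the replicates in PLATE-Seq, and its p-values measure the spread between wells of this plate. In TruSeq the pools are the units, and p-values and intervals rest on the spread between the 2 pools of a condition, shared over all 8 conditions. Each condition occupied the same place in every run of 8 well numbers, so that drug and place cannot be told apart. The TruSeq pools of gemcitabine and DMSO were on lane 2, and those of idarubicin and mitoxantrone on lane 1. The 2 aprepitant pools were split over both lanes. Between gemcitabine and idarubicin or mitoxantrone pools, drug and lane therefore cannot be told apart. Each TruSeq pool combined material of 6 wells that also gave PLATE-Seq libraries, so both platforms rest on the same control cultures, and values from both are placed side by side here without a test between them. BT20 is on a registry of commonly misidentified lines. Of 7 epithelial genes, EPCAM, CDH1, KRT7, KRT8, KRT18 and EGFR were above 100 CPM on average in the wells of both groups, whereas KRT19 was near 0 in PLATE-Seq and above 400 CPM in the TruSeq pools. EGFR was at 687 ± 58.9 CPM (counts of a gene scaled to a common library total, mean ± SD, n = 12 wells) under gemcitabine and 690 ± 112 under DMSO. KLK3 and KLK2, which define the LNCaP prostate line used elsewhere in the series, were at 0 in all 24 wells. Summed leukocyte markers ran from 0 to 6.54 CPM under gemcitabine and from 0 to 3.09 CPM under DMSO, and of 5 fibroblast genes DCN, LUM, PDGFRA and PDGFRB were at 0 in these wells while COL1A1 was at 23.0 ± 9.34 CPM under gemcitabine and 17.3 ± 5.05 CPM under DMSO.

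Gemcitabine is a deoxycytidine analogue. It enters cells through nucleoside transporters such as SLC29A1 (ENT1), is phosphorylated by deoxycytidine kinase (DCK), and is inactivated by cytidine deaminase (CDA). Its diphosphate inhibits ribonucleotide reductase (RRM1 with RRM2 or RRM2B), which lowers deoxynucleotide pools, and its triphosphate stops DNA chains after incorporation. Cells with stalled forks are known to activate the ATR and CHEK1 checkpoint. In cells with wild-type p53, targets such as CDKN1A and MDM2 are typically induced, whereas BT20 is known as a line with mutant p53. The gene groups below follow this sequence, from handling of the drug to replication, the cell cycle, damage signalling and p53 targets.

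Total counts per well ran from 900749 to 1146976 under gemcitabine and from 367848 to 1071312 under DMSO, and the TruSeq pools held 23173632 and 25047867 counts under gemcitabine and 25356838 and 26719454 under DMSO. The mean total was 118381 counts higher in the gemcitabine wells (p = 0.0490, two-sided permutation test, 100000 resamples, 12 against 12 wells). Without the 1 DMSO well of low depth the difference was 71253 (permutation p = 0.0961). At a common depth of 300000 counts, 10022 ± 160 genes were detected under gemcitabine and 9863 ± 254 under DMSO, a difference of 159 genes with a 95% interval from -22.9 to 340 (p = 0.0776, two-sided permutation test). Of all counts, 40.5% ± 2.02 under gemcitabine and 39.2% ± 1.51 under DMSO fell on 6 gene symbols in PLATE-Seq. Spike-in RNA went to a subset of wells that the labels do not name. Its share of counts stood at 4.27% or more in all wells of 6 of the 12 runs and at 1.31% or less in the others, and in the first 6 it took 5.79% ± 0.953 of counts under gemcitabine and 5.82% ± 0.444 under DMSO (n = 6 each, exact permutation p = 0.950, two-sided).

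No single gene passed the main test against DMSO, edgeR with a filter on low counts, on either platform. Without that filter 30 TruSeq genes and 0 PLATE-Seq genes passed. In PLATE-Seq, 0 of 6410 tested genes (0.0%) had an adjusted p under 0.05 in the edgeR quasi-likelihood fit, with Benjamini-Hochberg adjustment over all of them, and the smallest adjusted p was 0.440. An unadjusted p under 0.05 was reached by 377 genes (5.88%), 190 higher under gemcitabine (2.96%) and 187 lower (2.92%). DESeq2 called 3 genes in the same wells, all higher: RPL29, MRPL14 and RPS14, which encode cytosolic and mitochondrial ribosomal proteins. In TruSeq, 0 of 14970 tested genes (0.0%) were called by edgeR and 0 by DESeq2, the smallest edgeR adjusted p was 0.121, and 1143 genes (7.64%) had an unadjusted p under 0.05, 691 higher (4.62%) and 452 lower (3.02%).

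The intervals state how large a change could have gone unseen. The 95% interval of the log2 fold change (gemcitabine minus DMSO) lay within -1 to 1, a 2-fold change either way, for 5417 tested PLATE-Seq genes (84.5%) and for 13338 TruSeq genes (89.1%). A change of 1.5-fold lay outside the interval for 40.2% and 78.6% of tested genes, respectively. The median half-width was 0.49 on the log2 scale in PLATE-Seq and 0.17 in TruSeq. Precision followed the level of a gene: in PLATE-Seq 76.2% of 4151 genes below 50 CPM were bounded within 2-fold, against 99.8% of 1772 genes from 50 to 200 CPM, and in TruSeq 19.4% of 1812 genes below 1 CPM against 95.4% of 3618 genes from 1 to 10 CPM. These shares are of genes that passed the filter on low counts, and the remaining symbols among 28430 have no bound.

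**Figure D1:**
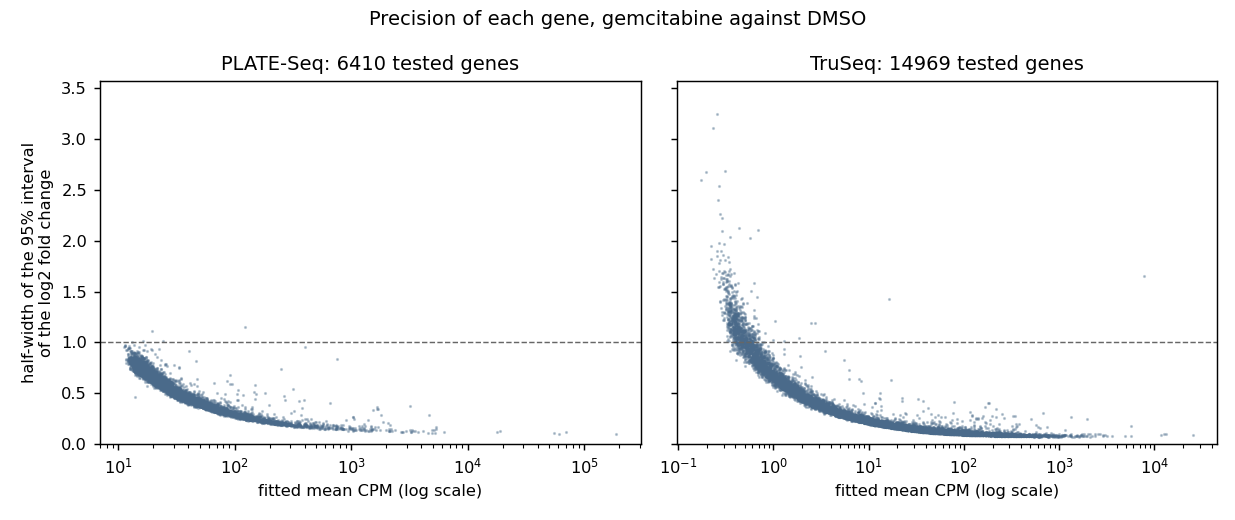
Half-width of the 95% interval of the log2 fold change (vertical axis) against the fitted mean CPM of each tested gene (horizontal log axis), for PLATE-Seq (left) and TruSeq (right), with a dashed line at 1. Intervals narrow as the level rises, to a median half-width of 0.19 above 200 CPM in PLATE-Seq and 0.096 above 100 CPM in TruSeq.

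In the list of 15 genes that carry gemcitabine into cells and metabolize it, 0 of 9 tested in PLATE-Seq and 0 of 14 tested in TruSeq were called, and none reached an unadjusted p under 0.05 on either platform. DCK, at chr4:71858255-71896631 (GRCh37, plus strand), had 3.21, 17.5 and 34.0 CPM in the lowest, median and highest gemcitabine well and 5.23, 28.0 and 40.1 CPM under DMSO. These ranges overlapped, and the log2 fold change was -0.44 with an upper limit of 0.12. In TruSeq DCK was at 38.8 and 42.2 CPM under gemcitabine and 45.3 and 41.4 CPM under DMSO, with an interval from -0.24 to 0.05. SLC29A1 was at 48.3 and 49.6 CPM against 45.4 and 49.4 CPM in the TruSeq pools. CDA was at 4.96 ± 4.39 CPM under gemcitabine and 3.17 ± 3.10 CPM under DMSO in PLATE-Seq (58 and 38 reads, not tested) and from 0.477 to 0.635 CPM in the TruSeq pools, with an interval from -0.94 to 0.69. The summed PLATE-Seq level of the list was 589 ± 65.6 CPM under gemcitabine and 609 ± 63.5 CPM under DMSO, a log2 difference of -0.05 with a 95% interval from -0.18 to 0.08.

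The enzymes of deoxynucleotide synthesis were tightly bounded. RRM1, the large subunit of ribonucleotide reductase at chr11:4115937-4160162 (GRCh37, plus strand), had 155, 198 and 277 CPM in the lowest, median and highest gemcitabine well and 139, 192 and 303 CPM under DMSO. In TruSeq it was at 280 and 280 CPM against 285 and 289 CPM, and its log2 fold change was -0.03 with an interval from -0.11 to 0.06. RRM2, the S-phase small subunit at chr2:10260825-10351851 (plus strand), was at 523 and 522 CPM under gemcitabine and 530 and 525 CPM under DMSO in TruSeq, with a log2 fold change of -0.01 and an interval from -0.09 to 0.07. In the PLATE-Seq wells RRM2 ran from 159 to 287 CPM under gemcitabine and from 178 to 311 CPM under DMSO, with an interval of the log2 fold change from -0.14 to 0.26. TYMS, thymidylate synthase, was bounded between -0.07 and 0.12 in TruSeq.

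Of the 13 genes in this list, 0 of 10 tested in PLATE-Seq and 0 of 13 in TruSeq were called. The TruSeq members with the smallest unadjusted p were DTYMK, thymidylate kinase, at log2 fold change 0.16 (adjusted p = 0.551 by edgeR), and RRM2B, the small subunit that p53 can induce, at -0.16 (adjusted p = 0.611 by edgeR). The summed PLATE-Seq level of the list was 1349 ± 94.4 CPM under gemcitabine and 1351 ± 101 CPM under DMSO, so that the 95% interval of the ratio ran from 0.937 to 1.06. The median log2 fold change over the tested members was -0.0013 in PLATE-Seq and 0.0010 in TruSeq, beside -0.0031 and -0.0006 over all genes tested.

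The 26 genes that license and fire replication origins include the origin recognition complex, CDC6 and CDT1, which load the MCM helicase, and CDC45 and the GINS subunits, which activate it. Of 19 members tested in PLATE-Seq 0 were called, and of 26 tested in TruSeq 0 were called. In TruSeq 2 were higher and 2 lower at an unadjusted p under 0.05, where 4.62% and 3.02% of all tested genes were. In PLATE-Seq 1 was lower at that p, where 2.92% of all tested genes were. It was the initiation factor MCM10 (log2 fold change -0.69, interval -1.19 to -0.20, adjusted p = 0.683 by edgeR), whose TruSeq interval was -0.17 to 0.08. CDT1 had the smallest p among those above DMSO (log2 fold change 0.17, interval 0.05 to 0.28, adjusted p = 0.551 by edgeR). CDC45 had the smallest among those below (-0.13, interval -0.24 to -0.01, adjusted p = 0.621). CDC6 was at 105 and 103 CPM under gemcitabine and 102 and 105 CPM under DMSO in TruSeq, an interval of -0.09 to 0.11. MCM5 was at 134 and 137 CPM against 122 and 134 CPM, an interval of -0.02 to 0.19. In TruSeq every one of the 26 members was bounded within 1.5-fold. The lowest and highest limits of any member were -0.31 and 0.28. In PLATE-Seq 15 of 19 were bounded within 2-fold, and 11 of the 12 gemcitabine wells lay inside the range of the DMSO wells for the summed level.

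The 30 replication fork genes encode the sliding clamp PCNA, its RFC loader, the replicative polymerases, RPA and the fork protection proteins TIMELESS, TIPIN and CLSPN. None of 22 tested in PLATE-Seq and none of 30 tested in TruSeq was called. In TruSeq 4 were higher and 0 lower at an unadjusted p under 0.05, where 4.62% and 3.02% of all tested genes were. These 4 were POLD1 and POLD2, subunits of DNA polymerase delta, POLE4, a subunit of polymerase epsilon, and CHAF1A, of chromatin assembly factor 1, with log2 fold changes from 0.09 to 0.16. PCNA was at 123, 168 and 243 CPM in the lowest, median and highest gemcitabine well and at 150, 179 and 218 CPM under DMSO, with an interval from -0.28 to 0.15. All 12 gemcitabine wells lay inside the DMSO range for the summed level of the list, 1070 ± 84.3 CPM against 1045 ± 93.4 CPM, and the ratio had an interval from 0.952 to 1.10. In TruSeq the members' limits ran from -0.21 to 0.29.

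Among 22 regulators of the G1/S transition, 0 of 14 tested in PLATE-Seq and 0 of 21 in TruSeq were called. CDKN2C, an inhibitor of the cyclin D kinases, had the smallest TruSeq p of the list, with 43.8 and 46.7 CPM under gemcitabine and 36.9 and 40.8 CPM under DMSO (log2 fold change 0.23, interval 0.10 to 0.35, adjusted p = 0.436 by edgeR). Both gemcitabine pools were above both DMSO pools, but the PLATE-Seq wells gave -0.33 with an interval from -0.69 to 0.03. RB1, the retinoblastoma protein, gave -0.77 (interval -1.35 to -0.20, adjusted p = 0.683) in PLATE-Seq and -0.09 (interval -0.19 to 0.02) in TruSeq. CCNE1 and CCNE2, the E cyclins, were bounded in TruSeq between -0.06 and 0.20 and between -0.14 and 0.12, and E2F1 between -0.07 and 0.15. The summed PLATE-Seq level was 826 ± 79.4 CPM under gemcitabine and 864 ± 57.7 CPM under DMSO, with an interval of the log2 difference from -0.17 to 0.03.

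The 55 G2/M and mitotic genes were measured with narrow limits. Of 54 tested in PLATE-Seq 0 were called, all 54 were bounded within 2-fold and 41 within 1.5-fold. Of 55 tested in TruSeq 0 were called and all were bounded within 1.5-fold, with limits from -0.26 to 0.18. In PLATE-Seq 2 stood above and 2 below DMSO at an unadjusted p under 0.05, where 2.96% and 2.92% of all tested genes did. PLK1, the polo-like kinase of mitotic entry at chr16:23688977-23701688 (GRCh37, plus strand), had 324, 436 and 492 CPM in the lowest, median and highest gemcitabine well and 278, 388 and 432 CPM under DMSO, a log2 fold change of 0.21 with an interval from 0.03 to 0.39 (adjusted p = 0.767 by edgeR). The TruSeq pools gave PLK1 at 162 and 166 CPM under gemcitabine and 157 and 169 CPM under DMSO, with an interval from -0.09 to 0.11. TOP2A, topoisomerase II alpha, gave 0.26 in PLATE-Seq (interval 0.03 to 0.49) and -0.10 in TruSeq (interval -0.19 to -0.01), and neither value passed the adjusted test. CCNB1, cyclin B1, gave -0.28 (interval -0.54 to -0.02) and -0.04 (interval -0.12 to 0.05), and CCNA2, cyclin A2, 0.06 and -0.01. BUB1B, a spindle checkpoint kinase, gave -0.31 in PLATE-Seq (adjusted p = 0.600 by edgeR) and -0.04 in TruSeq.

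The summed level of this group was 5870 ± 141 CPM under gemcitabine and 5973 ± 260 CPM under DMSO in PLATE-Seq, and all 12 gemcitabine wells lay inside the DMSO range. The 95% interval of the ratio ran from 0.954 to 1.01, and that of the log2 difference from -0.068 to 0.020. Scaling by total count alone gave a log2 difference of -0.080, which lay outside that interval. In TruSeq the sums were 11241 and 11133 CPM under gemcitabine and 11618 and 11512 CPM under DMSO, and the median log2 fold change over 55 members was -0.04, with 12 members above and 43 below DMSO. The GC content of transcripts moved with this TruSeq contrast: the median log2 fold change was -0.05 over tested genes in the lowest quartile of GC content and 0.08 over those in the highest, and the G2/M genes had a median GC content of 45.0% against 50.2% over the tested genes with a known transcript. After the median of genes of like GC content was subtracted, 27 of 55 G2/M members were above DMSO and their median was -0.0025. The subtraction was added after seeing the data, and the part of GC content in this TruSeq difference was not tested.

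**Figure D2:**
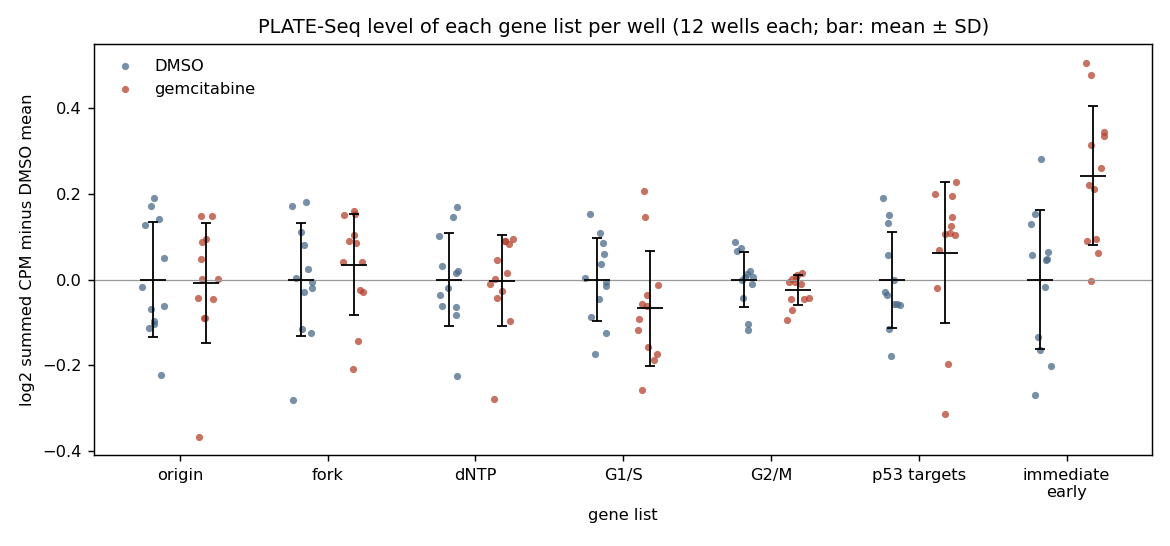
Summed CPM of each gene list per PLATE-Seq well on the log2 scale (vertical axis), with the DMSO mean of that list set to 0, for 12 DMSO wells (blue) and 12 gemcitabine wells (red); black bars are mean ± SD. All 12 gemcitabine wells lie inside the DMSO range for the fork and G2/M lists, 8 for G1/S and 7 for p53 targets, and the immediate early genes lie higher with 7 of 12 wells inside it.

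DNA damage checkpoint and repair genes, among them ATR, CHEK1 and the Fanconi anaemia genes, gave 0 calls among 23 members tested in PLATE-Seq and 0 among 32 in TruSeq. FANCD2, which is ubiquitinated at stalled forks, had 13.9, 45.6 and 96.6 CPM in the lowest, median and highest gemcitabine well and 16.4, 30.2 and 53.4 CPM under DMSO (log2 fold change 0.59, interval 0.15 to 1.03, adjusted p = 0.687 by edgeR). The TruSeq pools gave 123 and 116 CPM against 118 and 119 CPM, so that a log2 fold change of FANCD2 above 0.12 lay outside their interval. CHEK1 gave -0.34 in PLATE-Seq (interval -0.88 to 0.20) and -0.09 in TruSeq (interval -0.20 to 0.03). The summed level of the 32 genes was 1069 ± 62.5 CPM under gemcitabine and 1053 ± 94.4 CPM under DMSO. In TruSeq 7 members were above and 25 below DMSO, with sums of 2525 and 2471 CPM under gemcitabine and 2596 and 2513 CPM under DMSO. These genes had a median GC content of 43.7%, and 16 of the 30 with a known transcript were above 0 after subtraction of the median of genes of like GC content. The part of GC content in their TruSeq values was likewise not tested.

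Of 32 p53 target genes, 11 passed the filter in PLATE-Seq and 29 in TruSeq, and 0 were called on either platform. CDKN1A, the cyclin-dependent kinase inhibitor p21 at chr6:36644237-36655114 (GRCh37, plus strand), was too low for the PLATE-Seq filter, with 2.14, 8.40 and 24.1 CPM in the lowest, median and highest gemcitabine well and 1.11, 6.63 and 18.5 CPM under DMSO. In TruSeq it was at 11.5 and 13.8 CPM under gemcitabine and 12.1 and 12.0 CPM under DMSO. The gemcitabine pools lay on either side of the DMSO pools, and the log2 fold change was 0.08 with an interval from -0.12 to 0.27. MDM2, the ubiquitin ligase of p53, was bounded between -0.16 and 0.07 in TruSeq and between -1.03 and 0.20 in PLATE-Seq. GDF15 had 0 reads in all 24 PLATE-Seq wells and at most 0.224 CPM in the 4 TruSeq pools, and it was not tested.

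The p53 targets GADD45A, BAX and XPC stood at an unadjusted p under 0.05 above DMSO in TruSeq, and CCNG1 below. Among all tested genes 4.62% stood above and 3.02% below at that p. GADD45A, a growth arrest gene, gave 0.19 (interval 0.01 to 0.38), BAX, an effector of mitochondrial apoptosis, 0.16 (interval 0.01 to 0.31) and XPC, a DNA damage sensor, 0.13. CCNG1, cyclin G1, gave -0.18 (interval -0.30 to -0.06), and none passed the adjusted test (adjusted p = 0.509 for CCNG1 by edgeR). Without DMSO pool 1 BAX gave 0.069 and CCNG1 -0.099, and without DMSO pool 2 they gave 0.25 and -0.26. PHLDA3, an inhibitor of AKT signalling that was singled out after its values were seen, did not pass the PLATE-Seq filter. It had 132 reads in 12 gemcitabine wells and 35 in 12 DMSO wells, and without a filter its log2 fold change was 1.79 (adjusted p = 0.0899 by edgeR), while the TruSeq pools held it at 23.1 and 24.6 CPM against 22.0 and 24.6 CPM with an interval from -0.13 to 0.21. The summed level of the p53 list was 485 ± 51.5 CPM under gemcitabine and 463 ± 36.4 CPM under DMSO, a ratio with an interval from 0.961 to 1.14. In TruSeq 10 members were above and 19 below DMSO, with a median of -0.02 and all 29 tested members bounded within 2-fold.

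**Figure D3:**
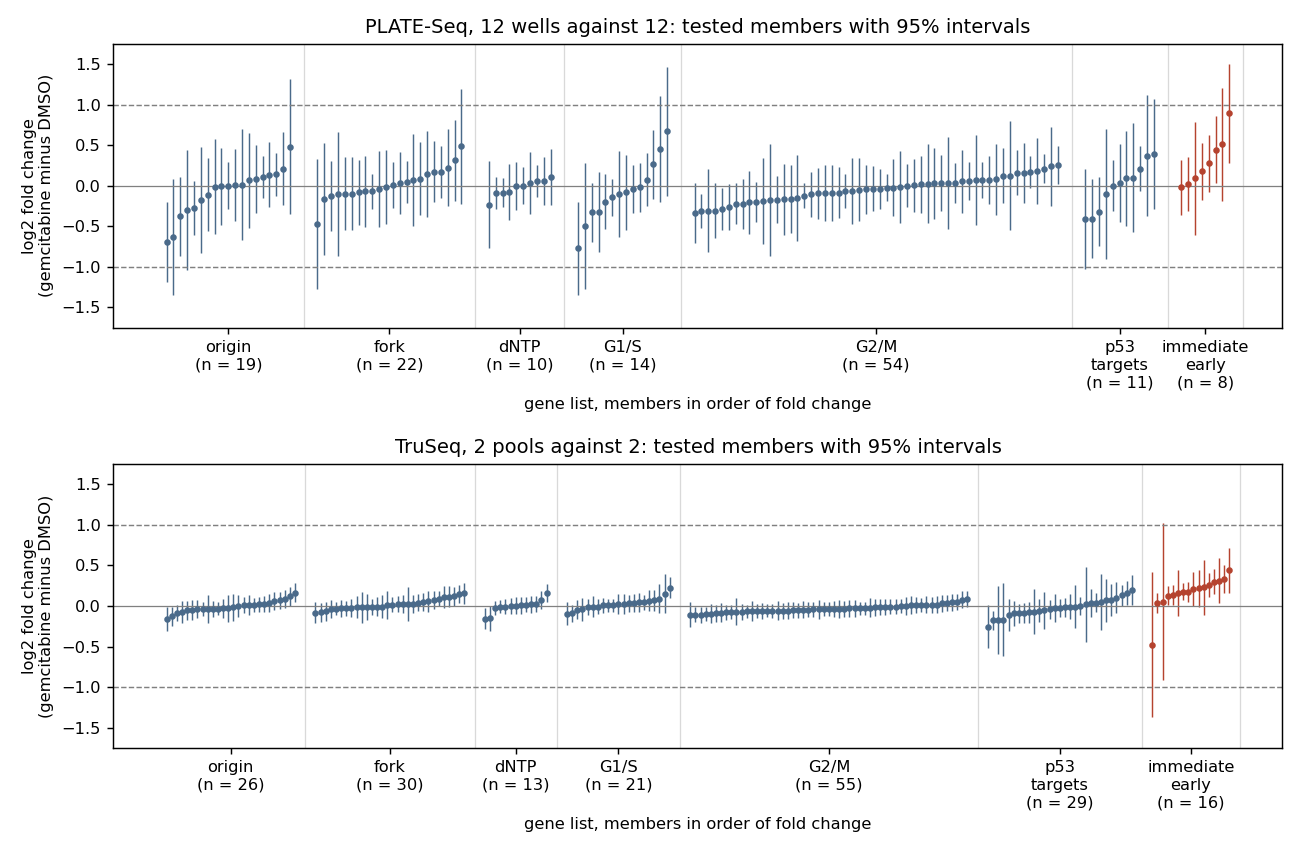
Log2 fold change (gemcitabine minus DMSO, vertical axis) of each tested member of 7 gene lists with its 95% interval, in order of size within a list, for PLATE-Seq (top) and TruSeq (bottom); dashed lines mark a 2-fold change. In TruSeq every tested replication, cell cycle and p53 target gene lies between the dashed lines, and 15 of 16 immediate early genes (red) lie above 0.

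The list whose summed PLATE-Seq level differed most from DMSO, among the 14 lists, was that of the 16 immediate early genes, which encode transcription factors and signalling proteins induced within minutes of a stimulus. None was called among 8 tested in PLATE-Seq or 16 tested in TruSeq, but without the filter on low counts edgeR called JUN (adjusted p = 0.00430) and EGR1 (adjusted p = 0.00162) in TruSeq. In TruSeq 15 of 16 were above DMSO, 10 of them at an unadjusted p under 0.05, where 4.62% of all tested genes were higher at that p, and the median log2 fold change was 0.19. JUN, a subunit of AP-1 at chr1:59242517-59249720 (GRCh37, minus strand), was at 52.2 and 50.2 CPM under gemcitabine and at 37.5 and 46.2 CPM under DMSO (log2 fold change 0.30, interval 0.14 to 0.45, adjusted p = 0.306 by edgeR). Without DMSO pool 1 the value for JUN was 0.15, and without DMSO pool 2 it was 0.45 and called (adjusted p = 0.00969 by edgeR). In PLATE-Seq JUN had 14.5, 32.4 and 62.2 CPM in the lowest, median and highest gemcitabine well and 0.948, 16.2 and 39.5 CPM under DMSO (0.90, interval 0.28 to 1.51, adjusted p = 0.600). EGR1, a zinc finger factor, was at 52.8 and 48.4 CPM against 39.4 and 41.5 CPM in TruSeq (0.33, interval 0.16 to 0.50) and gave 0.09 in PLATE-Seq with an interval from -0.61 to 0.79. MYC gave 0.17 in TruSeq (interval 0.07 to 0.28) and -0.02 in PLATE-Seq.

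The summed level of the immediate early genes was 411 ± 46.4 CPM under gemcitabine and 347 ± 38.9 CPM under DMSO in PLATE-Seq. The groups overlapped, with 7 of 12 gemcitabine wells inside the DMSO range, and the log2 difference was 0.24 with a 95% interval from 0.11 to 0.38, the only interval among 14 lists that did not include 0. In TruSeq the sums were 528 and 523 CPM under gemcitabine and 441 and 481 CPM under DMSO. The DMSO pools were the lowest of the 16 TruSeq pools: none of the 14 drug pools, gemcitabine included, was below the higher DMSO pool, and they ran from 491 to 1186 CPM. Without DMSO pool 2 the TruSeq median rose to 0.28, and without DMSO pool 1 it was 0.12. These genes had a median GC content of 56.9%, and after subtraction of the median of genes of like GC content the list median was 0.13, with 13 of 16 members above 0. The part of GC content in what remained was not tested.

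Against the aprepitant wells the summed level of the immediate early genes in PLATE-Seq was again above, with the same 12 gemcitabine wells in both comparisons (log2 difference 0.23, interval 0.08 to 0.37). The difference was 0.19 against crizotinib (interval 0.04 to 0.34) and 0.11 against albendazole, where the interval from -0.01 to 0.24 included 0. Against idarubicin the difference was 0.0090 (interval -0.14 to 0.15) and against mitoxantrone 0.10 (interval -0.04 to 0.24), and the wells of the proteasome inhibitor bortezomib lay above those of gemcitabine (gemcitabine minus bortezomib -0.93, interval -1.07 to -0.79). In TruSeq the list summed to 528 and 523 CPM in the gemcitabine pools and 531 and 491 CPM in the aprepitant pools. The albendazole pools, on another lane than gemcitabine, were at 551 and 537 CPM. The median member differed from idarubicin in TruSeq by -0.15, with 3 of 16 members called higher and 6 lower, where 14.9% and 14.2% of all tested genes were. From mitoxantrone it differed by -0.11, with 2 higher and 6 lower, where 11.4% and 10.9% of all tested genes were. The median member differed from aprepitant by 0.09 and 0 of 16 members were called, where 1 of 14970 genes was called (0.00668%), higher under gemcitabine. JUN differed there by 0.11 with an interval from -0.04 to 0.26.

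**Figure D4:**
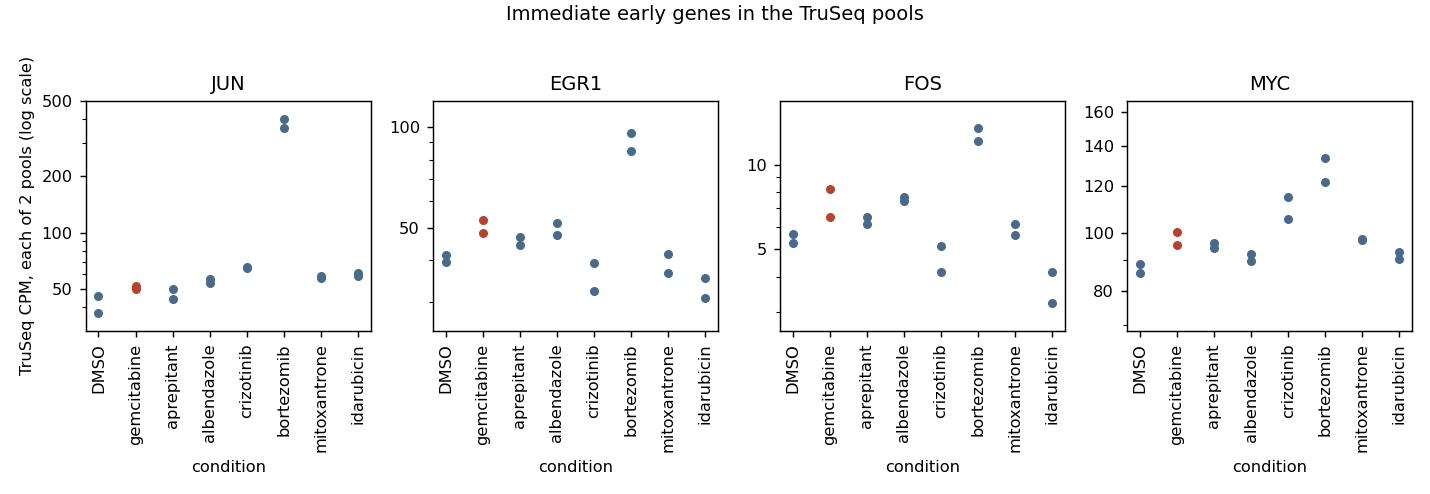
CPM of JUN, EGR1, FOS and MYC (vertical log axis) in each of the 2 TruSeq pools of DMSO, gemcitabine (red) and 6 other drugs. The 2 gemcitabine pools lie above both DMSO pools for all 4 genes, within the range of the other drug pools, and bortezomib is highest. FOS, EGR1 and MYC were picked after their values were seen. Both gemcitabine pools lie above both DMSO pools for 12 of the 16 immediate early genes and for 19.1% of all tested genes.

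Other stress programmes gave no calls. Of 12 ATF4 stress response genes 0 were called among 7 tested in PLATE-Seq and 12 in TruSeq, and the summed level differed by -0.04 on the log2 scale (interval -0.17 to 0.08). Of 18 NF-kB target genes 0 were called among 4 and 15 tested, with a summed difference of 0.0084 (interval -0.10 to 0.12). In TruSeq 4 of them stood above and 1 below DMSO at an unadjusted p under 0.05, where 4.62% and 3.02% of all tested genes did. TNFAIP2 gave 0.14 and NFKBIA, the inhibitor of NF-kB, -0.14, and neither passed the adjusted test. BCL2 family and caspase genes differed by 0.02 (interval -0.15 to 0.19), interferon-stimulated genes by -0.11 (interval -0.33 to 0.12) and replication-dependent histone genes by 0.05 (interval -0.26 to 0.36), with 0 calls in each list. Most histone mRNAs lack a poly(A) tail, and 3 of 25 histone genes were tested in PLATE-Seq.

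The genes with the smallest unadjusted p were not called by edgeR after the filter on low counts, although DESeq2 called RPS14, MRPL14 and RPL29 in PLATE-Seq, and edgeR without the filter called the 6 TruSeq genes named here. In PLATE-Seq RPS14 had 414, 487 and 615 CPM in the lowest, median and highest gemcitabine well and 291, 400 and 448 CPM under DMSO (log2 fold change 0.31, interval 0.15 to 0.48, adjusted p = 0.440 by edgeR), whereas its TruSeq interval was -0.05 to 0.11. MRPL14 and RPL29 gave 0.34 and 0.25, and ACIN1, PABPC4 and TPGS2 gave -0.40, -0.49 and -0.76. In TruSeq MIR210HG, the host transcript of a hypoxia-induced microRNA, was at 11.9 and 12.1 CPM under gemcitabine and 7.10 and 9.09 CPM under DMSO (0.58, interval 0.36 to 0.80, adjusted p = 0.121). GNE, the key enzyme of sialic acid synthesis, was at 39.7 and 34.6 CPM against 51.6 and 44.2 CPM (-0.36, interval -0.50 to -0.21, adjusted p = 0.121). ACTG1, PITX1 and AKR1C2 gave 0.19, 0.31 and -0.22. SNORD22, at most 0.784 CPM in any of the 4 pools, gave -2.16.

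Direct comparison with other drugs on the plate showed where the gemcitabine wells differed. Idarubicin and mitoxantrone trap topoisomerase II on broken DNA, while aprepitant blocks the neurokinin 1 receptor. Between gemcitabine and idarubicin 135 of 6592 genes were called in PLATE-Seq (2.05%), 92 of them higher under gemcitabine (1.40%) and 43 lower (0.652%). Between gemcitabine and mitoxantrone 79 of 6399 genes were called (1.23%), 61 of them higher (0.953%) and 18 lower (0.281%). Between gemcitabine and aprepitant 1 of 6473 genes was called (0.0154%), lower under gemcitabine. That gene was ITM2B, a membrane protein, at 215 ± 44.6 CPM under gemcitabine and 309 ± 57.6 CPM under aprepitant (log2 difference -0.52, adjusted p = 0.0353 by edgeR). The call was lost with DESeq2 (adjusted p = 0.0509) and with runs of wells as a replicate block (adjusted p = 0.0861 by edgeR), and kept without a filter (0.0124) and with RLE scaling (0.0374). In TruSeq ITM2B differed by 0.09 with an interval from -0.02 to 0.20.

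Mitotic genes were 43 of the 92 genes higher than under idarubicin. Of 51 G2/M and mitotic genes tested against idarubicin, 43 were higher under gemcitabine and 0 lower in PLATE-Seq, where 1.40% of all tested genes were higher, and the median log2 difference was 1.12. Against mitoxantrone 28 of 53 were higher and 0 lower, where 0.953% of all tested genes were higher, with a median of 0.70. In TruSeq 54 of 55 were higher against each of these drugs, where 14.9% of all genes were higher against idarubicin and 11.4% against mitoxantrone. The TruSeq pools of these drugs were on another lane than the gemcitabine pools. PLK1 was at 423 ± 55.6 CPM under gemcitabine, 78.2 ± 24.9 CPM under idarubicin and 146 ± 29.4 CPM under mitoxantrone, and the 12 gemcitabine wells, from 324 to 492 CPM, did not overlap with either. The log2 differences were 2.43 (SE 0.13, adjusted p = 1.25e-20 by edgeR) and 1.53 (SE 0.099, adjusted p = 6.85e-20). UBE2C, an E2 enzyme of the anaphase-promoting complex, differed from idarubicin by 1.27, and AURKA, the Aurora A kinase, from mitoxantrone by 1.43.

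Most replication genes that were called differed in the opposite direction. PCNA was at 174 ± 33.0 CPM under gemcitabine and 294 ± 23.0 CPM under idarubicin (log2 difference -0.76, adjusted p = 9.54e-09 by edgeR), and 273 ± 29.0 CPM under mitoxantrone (-0.65, adjusted p = 3.64e-06). In TruSeq 24 of 30 fork genes and 18 of 26 origin genes were lower under gemcitabine than under idarubicin, where 14.2% of all genes were lower, and 0 fork genes and 3 origin genes were higher. Against mitoxantrone 18 fork and 17 origin genes were lower (10.9% of all genes), and 0 and 4 were higher. Summed fork gene levels differed from idarubicin by -0.40 on the log2 scale (interval -0.48 to -0.32) and from mitoxantrone by -0.31 (interval -0.39 to -0.22) in PLATE-Seq. RELB, a subunit of NF-kB, was at 13.5 ± 6.59 CPM under gemcitabine and 49.3 ± 11.4 CPM under idarubicin (-1.85, adjusted p = 1.18e-08), and NFKBIA differed from mitoxantrone by -0.68. CDKN1A differed from idarubicin in TruSeq by -1.02 (interval -1.20 to -0.84), and in PLATE-Seq by -1.05, which did not pass (adjusted p = 0.0680 by edgeR). In each of the 14 lists 0 members were called between gemcitabine and aprepitant on either platform.

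**Figure D5:**
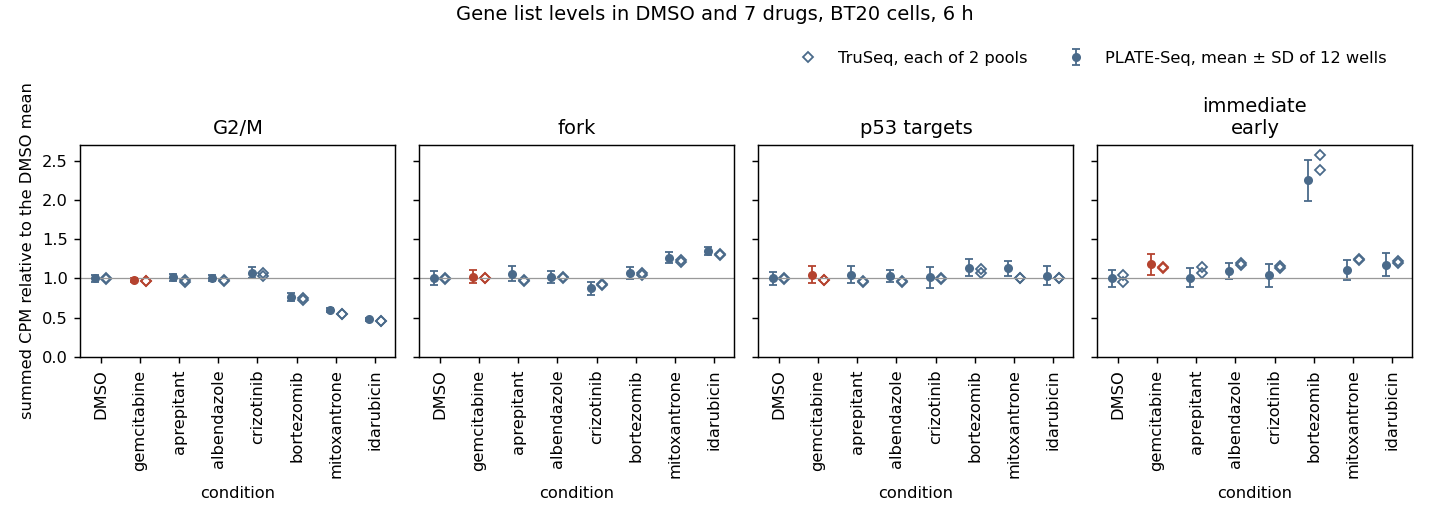
Summed CPM of 4 gene lists relative to the DMSO mean of the same platform (vertical axis) in DMSO and 7 drugs; filled circles are the mean ± SD of 12 PLATE-Seq wells and open diamonds the 2 TruSeq pools, with gemcitabine in red. Gemcitabine lies beside DMSO for the G2/M, fork and p53 lists, while G2/M levels are lowest under idarubicin and mitoxantrone.

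Promoters of G2/M genes often hold a cell cycle homology region (CHR), the element bound by the MuvB complexes that time their expression. As these genes moved together between gemcitabine and the topoisomerase poisons, the 250 bases upstream of each gene start (RefSeq, GRCh38.p14) were searched for the CHR letters TTTGAA or TTTAAA on either strand. They were found in 29 of the 45 G2/M genes with a promoter sequence (64.4%), in 0 of 26 fork genes, in 1 of 22 origin genes (4.55%) and in 6044 of all 27305 promoters (22.1%). The 30 bases around the match nearest to the gene start are shown for 4 G2/M genes, with the match in capitals, as examples of the element. They are those with a match closest to the gene start among 7 examined genes that had a match. UBE2C, AURKA, CCNA2 and BUB1 were also examined and had no match or no promoter sequence.
PLK1 (chr16:23678848-23678877, plus strand): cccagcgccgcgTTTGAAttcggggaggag
CCNB1 (chr5:69167108-69167137, plus strand): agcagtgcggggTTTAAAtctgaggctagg
CCNB2 (chr15:59105105-59105134, plus strand): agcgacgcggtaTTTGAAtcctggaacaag
KIF20A (chr5:138179059-138179088, plus strand): cgcagcgcgtaaTTTAAAatattgtatctg
The matches begin 29, 30, 29 and 41 bases before the gene start, and in CDC20, CDK1 and TOP2A the nearest match begins 65, 131 and 151 bases before it. A match describes letters in this window and does not show that a factor bound there.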

How the data were processed

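The authors assigned reads to wells by barcode, aligned them to hg19 with BWA (per the labels) and deposited raw counts per gene symbol. How TruSeq reads were counted is not given in the sources used here. Each BT20 table lists 28430 symbols. The 92 spike-ins were left out of totals and tests. Counts were tested with edgeR 4.0.16 (R 4.3.3: quasi-likelihood, robust, TMM, filterByExpr). PLATE-Seq fits held the compared wells and the TruSeq fit all 16 pools, with p-values adjusted over all genes tested (Benjamini-Hochberg, threshold 0.05). Each well was a separate culture, on 1 plate. DESeq2 1.42.0, RLE scaling, other filters, a replicate block and left-out libraries were alternatives, and GC subtraction and a restriction to wells of high spike-in share were added after seeing the data. Gene positions are from GENCODE on GRCh37.

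CPM used TMM-scaled totals. List levels are summed CPM over all members, with Welch 95% intervals and no p. Members and gene lists were chosen with earlier results of these data known. Genes named by rule were drug targets, cell cycle and p53 genes, the smallest p per direction on each platform and in each list, and the 2 called genes with the smallest p per direction against another drug. BUB1B, MCM10, POLD1, POLD2, CHAF1A, XPC, PHLDA3, FOS, EGR1, MYC, CCNB2, KIF20A, CDC20, CDK1, DQ582201 and LOC100507412 were named after their values were seen. Code was tested on simulated counts. Python 3.11.15, numpy 2.4.6, scipy 1.17.1, pandas 2.3.3 and matplotlib 3.10.9 were used. Permutation tests drew 100000 resamples.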

Additional observations from a re-analysis of the deposited data

Results flagged for a closer look

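The direct tests between drugs found 135 genes that differed between gemcitabine and idarubicin wells, 79 between gemcitabine and mitoxantrone wells and 1, ITM2B, between gemcitabine and aprepitant wells. Each number comes from the test of the difference itself, by edgeR in PLATE-Seq. ITM2B was not called with DESeq2 (adjusted p = 0.0509) or with the replicate block (adjusted p = 0.0861 by edgeR). In TruSeq the same comparisons gave 4359 (29.1%), 3341 (22.3%) and 1 gene (0.00668%) of 14970. The last was CYP1B1, and ITM2B had an adjusted p of 0.950 there by edgeR.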

How the results depend on the processing

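With DESeq2, 3 genes were called against DMSO in PLATE-Seq and 0 against aprepitant. With runs of 8 wells as a replicate block, 1 gene was called against DMSO (DQ582201, log2 fold change 0.48, adjusted p = 0.00254 by edgeR), 0 against aprepitant, and 78.7% of genes were bounded within 2-fold. The labels do not pair wells by run, and the deviations of gemcitabine and DMSO wells of 1 run had a mean correlation of 0.011 over 6410 genes, with 0 of 12 pairs over 0.1. Without a filter on low counts 30 TruSeq genes were called, 24 higher and 6 lower, among them JUN, EGR1, MIR210HG and GNE, and PLATE-Seq calls rose to 297 against idarubicin and 227 against mitoxantrone, with 33.7% of PLATE-Seq and 67.3% of TruSeq genes bounded. A minimum mean of 10 CPM in PLATE-Seq, which kept 6699 genes, bounded 82.0%, a minimum of 1 CPM in TruSeq, which kept 13046, bounded 98.97%, all 96 wells in a single fit 63.6%, and the 4 pools alone 92.8%, with 1 gene called (LOC100507412). Leaving out each TruSeq pool gave 0 to 3 calls, the 3 being MIR210HG, GNE and JUN without DMSO pool 2, and 83.2% to 83.6% of genes bounded. It gave list medians from -0.038 to -0.0083 for origin genes, from -0.021 to 0.0115 for deoxynucleotide synthesis and from -0.056 to -0.017 for p53 targets. A lone pool is assumed to vary like the other conditions. Subtracting GC medians, added after seeing the data, gave 0.0068 for origin genes and -0.0025 for G2/M genes. Scaling by total count gave -0.080 for the G2/M level in PLATE-Seq and 0.19 for the immediate early genes. Without the low-depth DMSO well the total count differed by 71253 (permutation p = 0.0961), and without the 6 most abundant symbols detected genes differed by 205 (permutation p = 0.0160). The cause of these shifts was not tested. The other 106 values that answer a comparison kept their direction and side of the threshold, or moved by less than the spread between wells or pools. Of 1218 values of single genes against DMSO under alternatives, 28 changed sign and 17 passed the threshold. Depth limits PLATE-Seq below 50 CPM, and 2 pools a condition limit TruSeq.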

Other observations

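Between the 691 TruSeq genes above DMSO and the 452 below at an unadjusted p under 0.05, the median GC content of transcripts was 60.8% and 43.5%, for the 606 and 403 genes with a known transcript. Between the 2 DMSO pools, pool 1 minus pool 2 was 0.06 on the log2 scale over genes in the lowest quartile of GC content and -0.08 over those in the highest. Between gemcitabine and aprepitant these groups of genes stood at 0.03 and -0.05. In PLATE-Seq, gemcitabine against DMSO, the lowest and highest quartiles stood at -0.01 and 0.01.

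Some genes were nearly absent from PLATE-Seq but not from TruSeq. KRT19 was at 0.583 ± 0.840 CPM in the gemcitabine wells and at 479 and 526 CPM in the gemcitabine pools. BAX had 0 reads in the gemcitabine wells and 33.2 CPM in both pools, and DTYMK 40 reads against 74.2 and 78.9 CPM.

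Spike-in sequences took 0.0424% to 1.31% of counts in the 48 wells of the 6 runs with little spike-in, with a median of 0.102%.

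In U87 glioblastoma cells, a line known to have wild-type p53, 2 wells received gemcitabine at 0.0085 µM for 24 h, a different dose and time. These 2 wells came from separately numbered sets of wells (U87PS1A and U87PS1B), each with 2 of the 4 DMSO wells. The DMSO ranges below span both sets, so that differences between sets are part of them, and no well was compared within its own set. CDKN1A was at 355 and 461 CPM, within the 274 to 526 CPM of 4 DMSO wells, and GDF15 at 70.7 and 46.8 CPM, where the DMSO wells ran from 28.5 to 49.4 CPM. MDM2 was at 14.5 and 53.2 CPM (DMSO 10.7 to 41.3), FDXR at 3.62 and 14.9 CPM (3.00 to 11.7) and TP53I3 at 18.1 and 8.52 CPM (13.5 to 36.5). The 32 p53 targets summed to 7029 and 3466 CPM in the 2 wells, within the 3132 to 8391 CPM of the DMSO wells.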
